A study of Mus musculus with 12 samples.

Results

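Brain-derived neurotrophic factor (Bdnf) and 6 genes around it were followed across 12 whole-genome arrays of mouse medial prefrontal cortex. The genes were Bdnf, the receptors Ntrk2, Ntrk3 and Ngfr, the ligand Ntf3, the sorting receptor Sort1 and the secreted protein Vgf. A probe set, the group of probes that reads one transcript region, was taken when the array annotation gave one of these symbols. That gave 25 of the 45101 probe sets on the table, from 6 of the 7 genes. There were 8 each for Ntrk2 and Ntrk3, 3 each for Ngfr and Sort1, 2 for Bdnf and 1 for Vgf, and Ntf3 was not analysed here. Of the 25, 19 were above the 45% of probe sets with the lowest mean signal and were tested among 24770, and 6 were not.

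The study asked how loss of the Src-family kinase Fyn alters the brain's transcriptional response to an acute sedative dose of ethanol. Fyn-null mice (B6;129S7-Fyntm1Sor/J) and control mice (B6129SF2/J), all adult males obtained at 12 weeks of age, were given habituating saline injections and then 3 g/kg ethanol or saline intraperitoneally, and tissue was taken 4 hours later. The 4 groups, Fyn-null ethanol, Fyn-null saline, control ethanol and control saline, had 3 arrays each, and each array carried RNA pooled from 3 mice, so that every p-value measures the spread between pools. The genotypes were separate stocks, so an effect of losing Fyn throughout the body and a difference between the stocks cannot be told apart.

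Neurotrophins are secreted growth factors that neurons make as precursors, pack into dense-core granules and release with activity. Mature BDNF signals through TrkB, the product of Ntrk2, and neurotrophin-3, the product of Ntf3, through TrkC, the product of Ntrk3. The p75 receptor, encoded by Ngfr, binds all mature neurotrophins weakly and, with sortilin, the product of Sort1, binds their precursors tightly. Sortilin also steers the BDNF precursor into the regulated secretory pathway. Vgf is a granule protein whose transcription is induced by neurotrophins and by activity. In cortex, Bdnf is made mainly by excitatory neurons from several alternative promoters, some of them driven by calcium through the factors CREB and Npas4, and Fyn is one of the kinases found in a complex with TrkB.

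Of 7 Bdnf start sites in the RefSeq promoter table, 1 held the letters TCACGTCA in the 250 bases before it, a variant of the cyclic AMP response element (CRE). It is shown because a CRE of these letters in an activity-driven Bdnf promoter of the rat is a known site of CREB, and Bdnf signal fell with ethanol below. The window lies on the + strand at chr2:109692186-109692435 (GRCm38.p6), runs 5′ to 3′ up to the start site and has the match in capitals, from -38 to -31 bases before that site.
Bdnf: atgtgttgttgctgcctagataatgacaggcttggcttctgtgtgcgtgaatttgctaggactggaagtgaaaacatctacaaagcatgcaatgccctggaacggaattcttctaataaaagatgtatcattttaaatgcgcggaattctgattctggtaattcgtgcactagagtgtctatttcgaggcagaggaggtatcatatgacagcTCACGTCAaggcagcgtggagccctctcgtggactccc
Searched on both strands, TCACGTCA occurred in 0.441% of all 32851 promoter windows of the table, which reach 50 bases past the start. The full palindrome TGACGTCA occurred in 1.79% and the E-box CACGTG in 7.15% of the windows, and neither was in a Bdnf window. A match is a description of letters and not a bound site. Both Bdnf probe sets are annotated to the same transcript record, and their signal was not assigned to any of the 7 start sites.

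Before any member was compared, the labels were checked against Fyn itself. Of the probe sets for Fyn, the brighter one read 8.64 to 9.01 in 5 of the 6 pools labelled Fyn-null, and 9.31 to 9.70 in 5 of the 6 pools labelled control. The pool labelled Fyn-null saline replicate 4 read 9.45 and the pool labelled control saline replicate 2 read 8.74, each inside the range of the other genotype. Where the Fyn probes lie relative to the deleted part of the gene was not checked. Calls among the members and the pathway genes are therefore also given without both. All 12 arrays were alike in their medians, 5.40 to 5.48 on the log2 scale, and correlated at 0.982 to 0.997. The 3′ minus 5′ difference of the Gapdh and beta-actin control probe sets, a sign of RNA integrity, was 0.39 to 0.63 in ethanol pools and 0.54 to 0.99 in saline pools. The means were 0.46 and 0.77, so this difference ran largely with treatment. An effect of ethanol and an effect of RNA integrity therefore cannot be told apart here. Markers of cortical excitatory neurons were present (6 of 6 with a probe set were above the filter), and of the basal forebrain cholinergic markers 0 of 6 were.

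Bdnf signal was lower after ethanol on both of its probe sets, by 22.2% and 28.0% over both genotypes. On the log2 scale, Fyn-null ethanol pools (replicates 1 to 3) gave 7.62, 7.33 and 7.63 for probe set 1422168_a_at. The signal was 8.07, 8.32 and 7.97 in the pools labelled Fyn-null saline replicates 2, 3 and 4. Every ethanol pool lay under every saline pool, and replicate 2 of the ethanol group was the lowest of all 12 arrays. The difference was -0.59 (SE 0.11, 95% interval -0.84 to -0.35), which is 33.8% lower, with an adjusted p of 0.0495 by limma with Benjamini-Hochberg adjustment over all 24770 probe sets. In control mice the same probe set read 7.87, 7.88 and 7.94 after ethanol (replicates 1, 2 and 4) and 7.99, 7.91 and 8.18 after saline (replicates 1, 2 and 3). These 2 groups overlapped, and the difference of -0.13 (SE 0.11, interval -0.37 to 0.12) had a limma adjusted p of 0.546. In bulk tissue, fewer Bdnf-expressing cells and less Bdnf RNA per cell cannot be told apart.

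The second Bdnf probe set, 1422169_a_at, is annotated to the same transcript record. It read 7.24, 7.05 and 7.29 in Fyn-null ethanol replicates 1 to 3 and 7.58, 7.79 and 8.03 in the pools labelled Fyn-null saline replicates 2 to 4. In control mice it read 7.13, 7.45 and 7.52 after ethanol and 7.70, 7.70 and 7.71 after saline. Here the ethanol pools lay under the saline pools in both genotypes. The differences were -0.61 in Fyn-null mice (SE 0.13, interval -0.88 to -0.34, limma adjusted p = 0.0628) and -0.34 in control mice (SE 0.13, interval -0.61 to -0.06, limma adjusted p = 0.181). Over both genotypes, with genotype as an additive term, 1422169_a_at was 0.47 lower after ethanol (difference -0.47, SE 0.09, limma adjusted p = 0.0114) and 1422168_a_at 0.36 lower (difference -0.36, SE 0.10, limma adjusted p = 0.0466). Both Bdnf probe sets therefore passed the test over both genotypes, and 1 of them in Fyn-null mice alone.

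**Figure D1:**
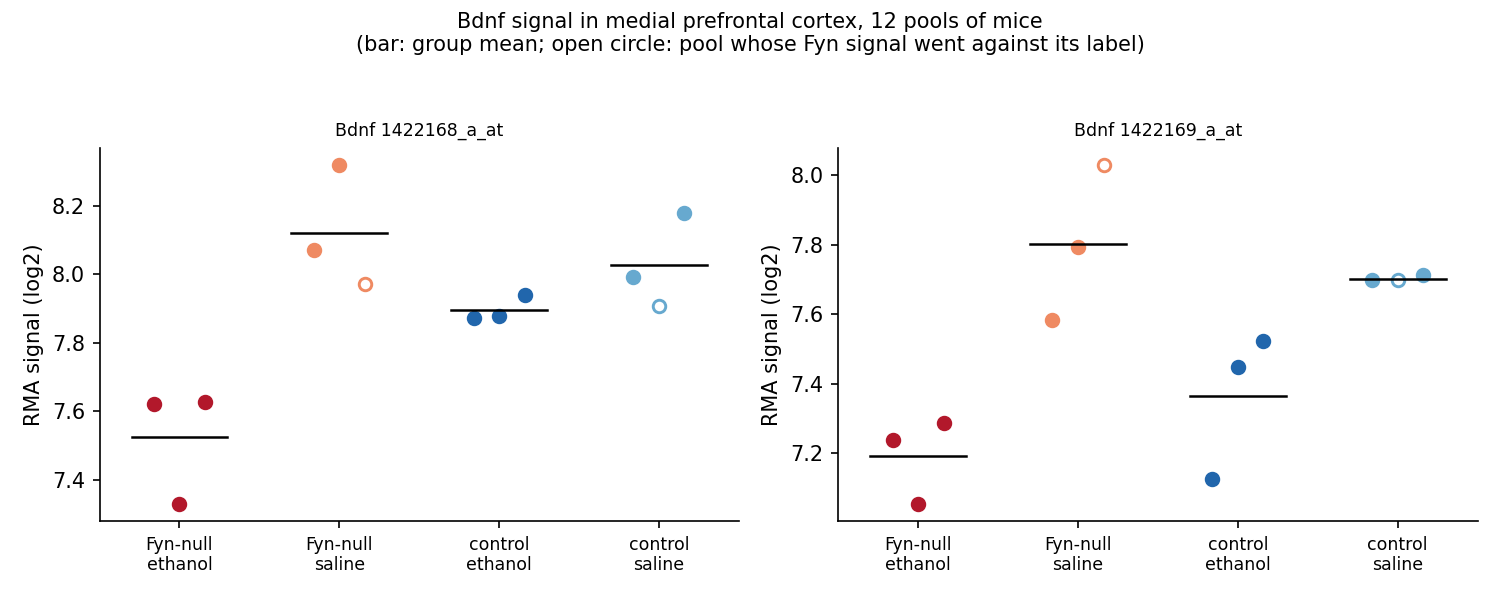
Log2 RMA signal of the 2 Bdnf probe sets (vertical axes) in each pool of the 4 groups (horizontal axes), with the group mean as a bar and the 2 saline pools whose Fyn signal went against the label as open circles. For 1422168_a_at the Fyn-null ethanol pools lie at 7.33 to 7.63 against 7.97 to 8.32 in Fyn-null saline pools, and for 1422169_a_at all 6 ethanol pools lie below all 6 saline pools.

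Whether the Bdnf response differed between the genotypes was tested directly. For 1422168_a_at the response of Fyn-null mice was lower than that of control mice by a difference of -0.47 (SE 0.16, interval -0.81 to -0.12), with an unadjusted limma p of 0.0127 and an adjusted p of 0.992. For 1422169_a_at it was -0.27 (SE 0.18, interval -0.66 to 0.11, limma adjusted p = 0.992). No probe set of 24770 passed this test (0%), 4.13% had an unadjusted p under 0.05, and 1 of the 19 tested here did. By mean level, 1422168_a_at ran from Fyn-null ethanol (7.53 ± 0.17, SD, n = 3) through control ethanol (7.90 ± 0.04) and control saline (8.03 ± 0.14) to Fyn-null saline (8.12 ± 0.18). For 1422169_a_at the same order was 7.19 ± 0.12, 7.37 ± 0.21, 7.70 ± 0.01 and 7.80 ± 0.22. Of the neighbours in that order, the Fyn-null ethanol and control ethanol pools did not overlap for 1422168_a_at, the control ethanol and control saline pools did not overlap for 1422169_a_at, and the other neighbours overlapped.

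The Bdnf result lay close to the threshold. For 1422168_a_at in Fyn-null mice the call was kept without control saline replicate 3 (adjusted p = 0.0348) and lost without each of the other 11 pools (adjusted p = 0.0593 to 0.197 by limma), with differences between -0.67 and -0.50. Without both saline pools in doubt the differences in Fyn-null mice were -0.67 (limma adjusted p = 0.0658) for 1422168_a_at and -0.50 (0.189) for 1422169_a_at. Over both genotypes, leaving out those pools gave -0.43 (limma adjusted p = 0.0424) and -0.42 (0.0265), so both calls were kept. The call of 1422169_a_at over both genotypes was kept without each of the 12 pools in turn, and that of 1422168_a_at without control ethanol replicate 4 or control saline replicate 2, and lost without any other (adjusted p = 0.0503 to 0.0975 by limma). With the 3′ minus 5′ difference as a covariate, the values over both genotypes were -0.14 (limma adjusted p = 0.873) for 1422168_a_at and -0.36 (0.538) for 1422169_a_at. In that fit 27 probe sets of all 24770 passed, against 1686 without the covariate. The covariate ran largely with treatment, so the fit cannot separate the part of RNA integrity from that of ethanol.

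Among all members, 1 of 19 probe sets (Bdnf) passed in Fyn-null mice, where 0.400% of all tested probe sets passed and 0.145% passed as lower. In control mice 0 of 19 passed, where 1.43% of all passed, and 4 of 19 had an unadjusted p under 0.05, where 18.9% of all did. Over both genotypes 3 of 19 passed, 2 lower (both Bdnf) and 1 higher (Sort1), where 6.81% of all passed, 4.22% lower and 2.58% higher. In Fyn-null mice 5 of 19 had ethanol and saline groups that did not overlap, against 18.1% of all, and in control mice 2 of 19, against 23.0%. Over both genotypes this held for 1 of 19, against 3.90%. The median ethanol difference of the 19 was 0.02 in Fyn-null mice and -0.04 in control mice, and that of all tested probe sets was -0.01 and -0.04.

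**Figure D2:**
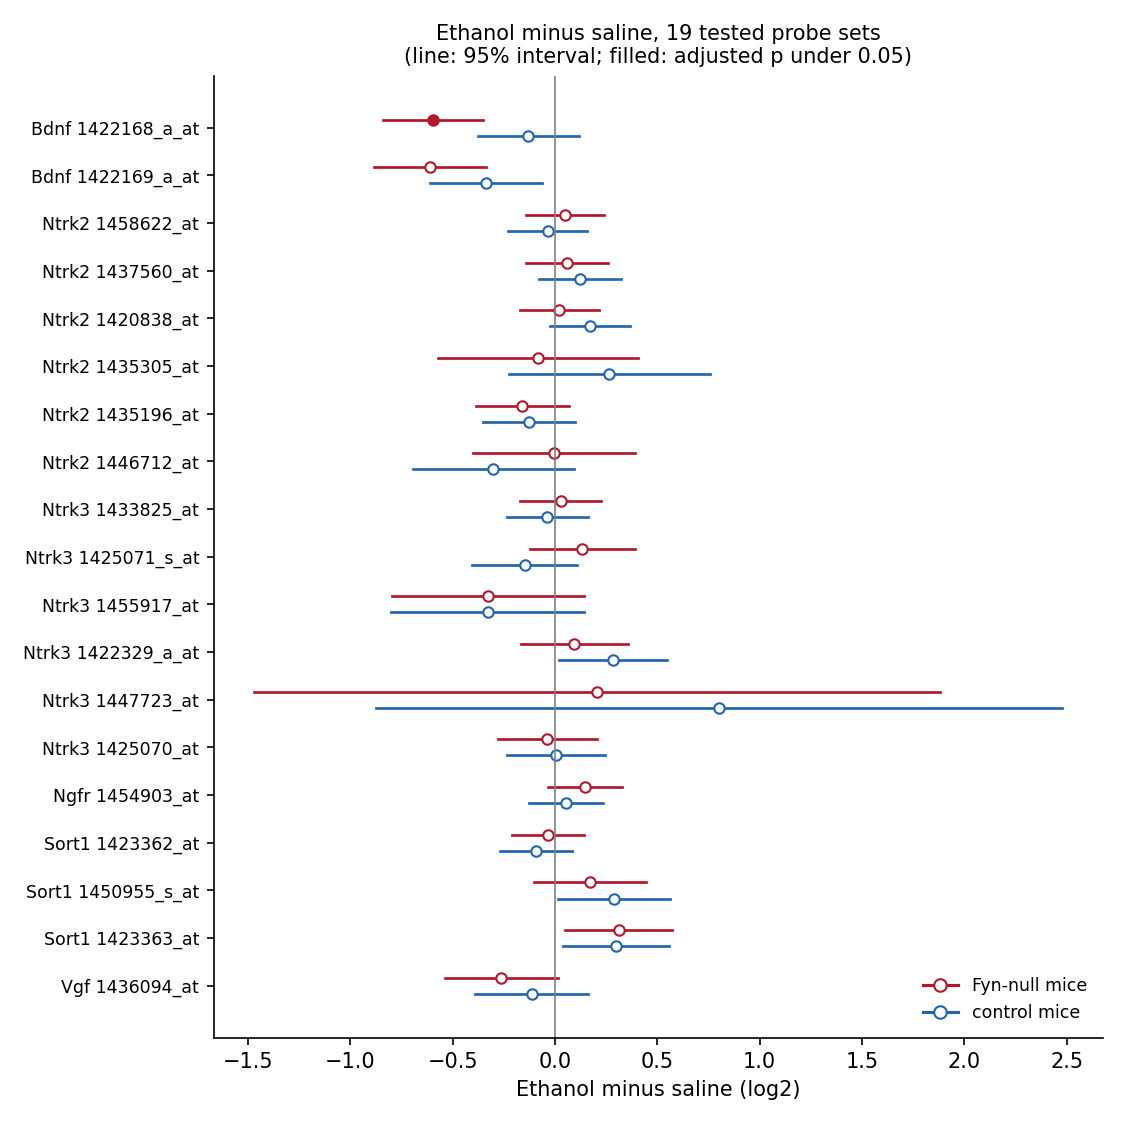
Ethanol minus saline difference (horizontal axis, log2) of each of the 19 tested probe sets (vertical axis) in Fyn-null mice and in control mice, with 95% intervals as lines and filled points for an adjusted p under 0.05. Both Bdnf probe sets lie at -0.59 and -0.61 in Fyn-null mice, and Ntrk3 1447723_at has the widest interval. The 6 Ntrk2 probe sets lie at -0.16 to 0.06 in Fyn-null mice and at -0.30 to 0.27 in control mice.

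Signal for the BDNF receptor TrkB did not move past the test in any comparison. The 6 tested Ntrk2 probe sets differed by -0.16 to 0.06 between ethanol and saline in Fyn-null mice and by -0.30 to 0.27 in control mice, with limma adjusted p-values of at least 0.608 and 0.316. Of these, 1458622_at, the one of highest mean, read 10.58, 10.50 and 10.57 in Fyn-null ethanol replicates 1 to 3 and 10.60, 10.40 and 10.51 in Fyn-null saline pools. In control mice it read 10.58, 10.45 and 10.39 after ethanol and 10.50, 10.39 and 10.64 after saline. The 4 groups overlapped, and the intervals of the ethanol difference, -0.14 to 0.24 in Fyn-null mice and -0.23 to 0.15 in control mice, leave room for changes in either direction. Probe set 1435196_at was the only one of Ntrk2 whose ethanol and saline groups did not overlap in Fyn-null mice, with a difference of -0.16 (SE 0.10, limma adjusted p = 0.608). Probe set 1435305_at varied most, from 8.97 to 10.01 over the 12 arrays, and its spread within groups (SD 0.33) was exceeded by 4.44% of tested probe sets. It averaged 9.31 ± 0.29 in Fyn-null ethanol pools and 9.74 ± 0.39 in control ethanol pools (SD, n = 3 each), a difference of -0.43 (limma adjusted p = 0.435). The 3 others, 1437560_at (10.24 to 10.74), 1420838_at (9.53 to 9.94) and 1446712_at (6.04 to 6.88), overlapped between ethanol and saline pools in both genotypes.

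TrkC, the receptor for neurotrophin-3, gave differences in both directions among its 6 tested probe sets, and none passed. Probe set 1422329_a_at read 5.95, 6.13 and 5.64 in Fyn-null ethanol replicates 1 to 3 and 5.81, 5.72 and 5.90 in the pools labelled Fyn-null saline replicates 2 to 4. It read 6.34, 6.27 and 6.15 in control ethanol pools and 6.08, 5.81 and 6.02 in control saline pools. Control ethanol pools were above those of every other group. The Fyn-null minus control difference was -0.35 under ethanol (SE 0.12, limma adjusted p = 0.243) and -0.25 over both treatments (SE 0.09, limma adjusted p = 0.354). Ethanol minus saline was 0.09 in Fyn-null mice and 0.28 in control mice (limma adjusted p = 0.826 and 0.231). Probe set 1455917_at was lower after ethanol by -0.33 in Fyn-null mice and by -0.33 in control mice (SE 0.22 each), with a limma adjusted p of 0.189 over both genotypes, and its groups overlapped. The member with the largest spread was 1447723_at of Ntrk3, which ran from 4.03 in Fyn-null saline replicate 3 to 8.00 in control ethanol replicate 1. Only 0.0202% of tested probe sets varied more within groups. The other 3, 1433825_at (8.90 to 9.25), 1425071_s_at (6.90 to 7.34) and 1425070_at (5.26 to 5.76), had ethanol differences of -0.15 to 0.13 in either genotype.

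Ngfr signal was low. Its tested probe set, 1454903_at, averaged 5.35 ± 0.11 in Fyn-null ethanol pools, 5.20 ± 0.07 in Fyn-null saline pools, 5.40 ± 0.05 in control ethanol pools and 5.35 ± 0.09 in control saline pools (SD, n = 3 each). The lowest mean that was tested lay at 5.15. The ethanol difference was 0.15 in Fyn-null mice and 0.06 in control mice (limma adjusted p = 0.537 and 0.74). Fyn-null saline pools did not overlap with control saline pools (5.12, 5.23 and 5.26 against 5.27, 5.45 and 5.32), a difference of -0.15 with a limma adjusted p of 1. The 6 members below the filter were 1450177_at (3.66 to 4.05) and 1421241_at (3.05 to 3.71) of Ngfr, 1420837_at (3.49 to 4.24) and 1444121_at (2.08 to 2.73) of Ntrk2, and 1443970_at (4.50 to 5.37) and 1426003_at (3.48 to 4.09) of Ntrk3. Fitted without the filter, these 6 had limma adjusted p-values of at least 0.204.

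Of the 3 Sort1 probe sets, the dimmest passed as higher after ethanol, and the brightest did not pass. Probe set 1423363_at read 6.30, 6.37 and 6.27 in Fyn-null ethanol replicates 1 to 3 and 5.95, 6.00 and 6.06 in the pools labelled Fyn-null saline replicates 2 to 4. It read 6.35, 6.60 and 6.71 in control ethanol pools and 6.45, 6.32 and 5.99 in control saline pools. The Fyn-null groups were apart and the control groups overlapped. The difference was 0.30 over both genotypes (SE 0.08, interval 0.13 to 0.48, limma adjusted p = 0.0416), with 0.31 in Fyn-null mice and 0.30 in control mice (limma adjusted p = 0.334 and 0.208). The difference between these responses was 0.01 (interval -0.35 to 0.38). Probe set 1450955_s_at was 0.23 higher (SE 0.09, limma adjusted p = 0.123), and 1423362_at differed by -0.06 (SE 0.06, interval -0.18 to 0.06, limma adjusted p = 0.517). All 3 are annotated to the same transcript record.

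The Sort1 call was kept without control ethanol replicate 1 or control saline replicate 1, and lost without each of the other 10 pools (limma adjusted p = 0.0507 to 0.0954), with differences of 0.25 to 0.35. Without both saline pools in doubt it was 0.34 (limma adjusted p = 0.0628), and with the 3′ minus 5′ difference as a covariate 0.10 (0.885). The same probe set was lower in Fyn-null than in control mice over both treatments, by a difference of -0.25 (SE 0.08, limma adjusted p = 0.339).

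Vgf signal did not pass in any comparison. It read 9.92, 9.94 and 9.98 in Fyn-null ethanol replicates 1 to 3 and 10.02, 10.13 and 10.46 in the pools labelled Fyn-null saline replicates 2 to 4. It read 10.20, 10.18 and 10.06 in control ethanol pools and 10.30, 10.01 and 10.47 in control saline pools. The 3 Fyn-null ethanol pools were the lowest of the 12, and the highest saline values came from 1 pool of each genotype. Ethanol minus saline was -0.26 in Fyn-null mice (SE 0.13, limma adjusted p = 0.455), -0.11 in control mice (0.639) and -0.19 over both (SE 0.09, 0.211). Without both saline pools in doubt it was -0.14 in Fyn-null mice and -0.24 in control mice (limma adjusted p = 0.638 and 0.209).

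**Figure D3:**
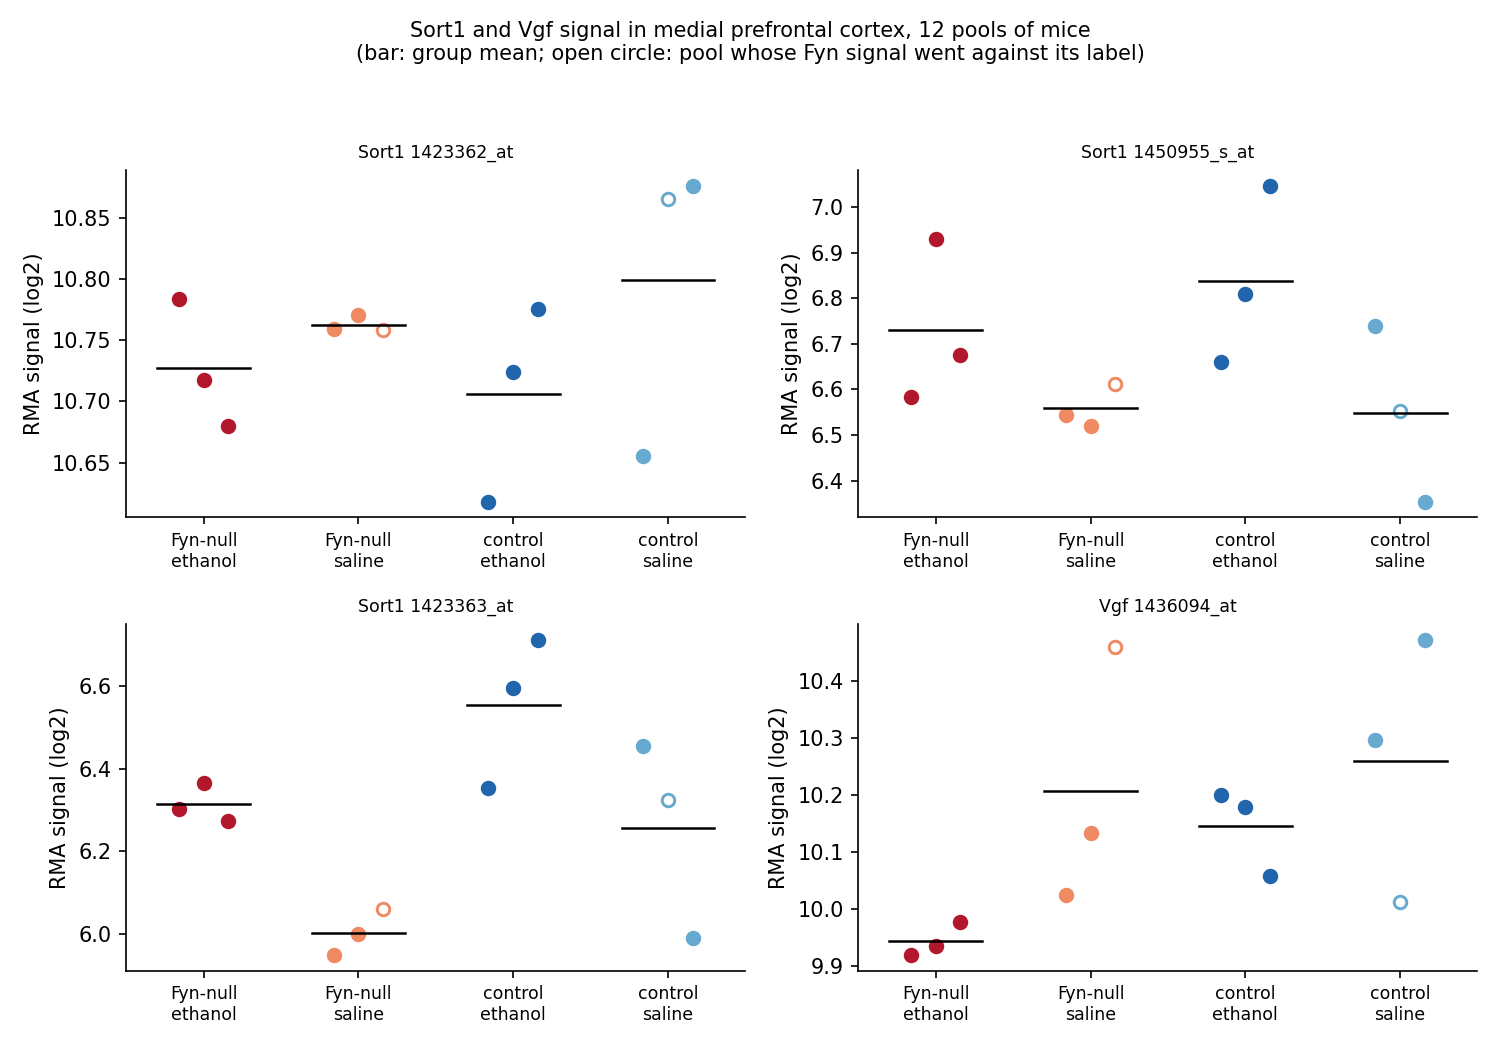
Log2 RMA signal of the 3 Sort1 probe sets and of Vgf (vertical axes) in each pool of the 4 groups (horizontal axes), with the group mean as a bar and the 2 saline pools whose Fyn signal went against the label as open circles. For Sort1 1423363_at the Fyn-null ethanol pools lie at 6.27 to 6.37 and the Fyn-null saline pools at 5.95 to 6.06, and for Vgf the 3 Fyn-null ethanol pools are the lowest.

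Between the genotypes no member passed. Under ethanol 0 of 19 passed, as of all 24770 (0%), and 2 of 19 had an unadjusted p under 0.05, Bdnf 1422168_a_at and Ntrk3 1422329_a_at, against 13.6% of all. Bdnf 1422168_a_at was lower in Fyn-null ethanol than in control ethanol pools by -0.37 (SE 0.11, interval -0.62 to -0.13, limma adjusted p = 0.195), and 1422169_a_at by -0.17 (SE 0.13, adjusted p = 0.588). Of 6 measured markers of cortical excitatory neurons, 4 lay below 0 and 2 above in the same comparison, with a median difference of -0.23 against 0.04 over all genes. Slc17a7, the vesicular glutamate transporter of these neurons, was -0.48 and Neurod6, a factor of their lineage, -0.45 (limma adjusted p = 0.174 and 0.289), both with no overlap between the groups, and Fezf2 was -0.33 (0.336). Their mean log2 level was 8.43 to 8.78 in Fyn-null ethanol and 8.79 to 9.01 in control ethanol pools. Under saline 5 of the 6 excitatory markers lay below 0, with a median of -0.14 against 0.01 over all genes. Under ethanol the 5 oligodendrocyte markers all lay below 0 (median -0.13) and the 6 endothelial markers all above 0 (median 0.14). The part of any of these markers in the Bdnf difference was not tested. The groups did not overlap for 6 of 19 members under ethanol (20.3% of all), 5 of them lower in Fyn-null mice, and the share of all by direction was not counted. Under saline 0 of 19 passed (0% of all), 0 of 19 had an unadjusted p under 0.05 (1.89% of all), and 1 of 19 did not overlap (5.16% of all). The Bdnf differences under saline were 0.09 and 0.10 (SE 0.11 and 0.13, limma adjusted p = 1 for both). Over both treatments 0 of 19 passed (0% of all) and 2 of 19 had an unadjusted p under 0.05 (11.1% of all), Sort1 1423363_at and Ntrk3 1422329_a_at. Without both saline pools in doubt, 260 probe sets passed under ethanol, 44 under saline and 669 over both treatments, and 0 of the 19 members did in any of these.

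**Figure D4:**
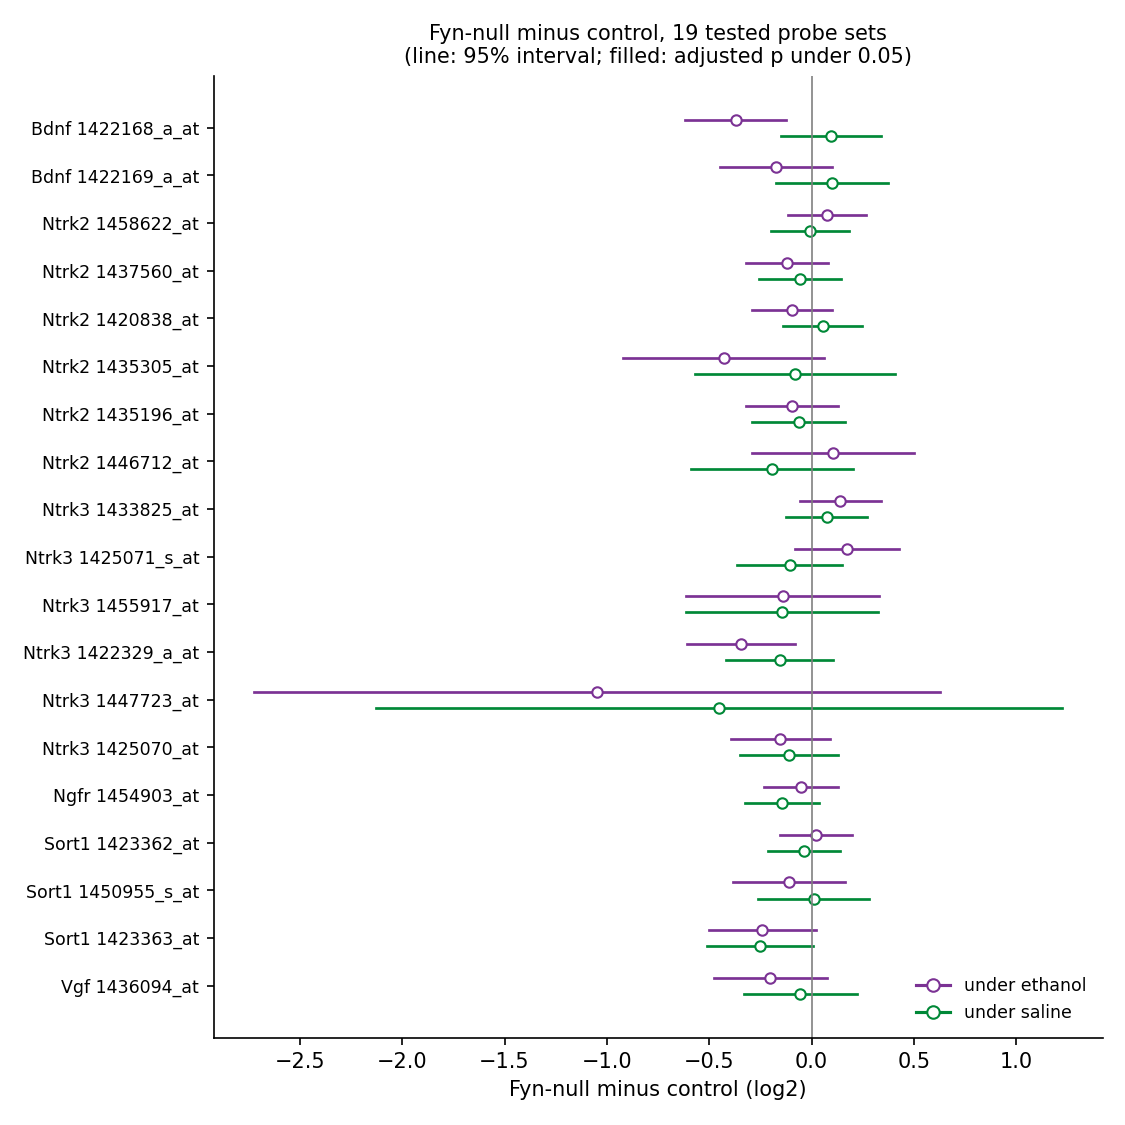
Fyn-null minus control difference (horizontal axis, log2) of each of the 19 tested probe sets (vertical axis) under ethanol and under saline, with 95% intervals as lines; filled points would mark an adjusted p under 0.05. No point is filled, and 14 of 19 differences lie below 0 in each treatment. Ntrk2 and Ntrk3 account for 6 of the 19 each, and the share of all probe sets below 0 was not counted.

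Genes that act before, beside and after the neurotrophins were counted next, with 1 probe set a gene. These lists were chosen with earlier results of these data known, so a count beside the share of all genes is a description. That share counts both directions. Among 28 activity-regulated genes, whose transcription follows neuronal firing as that of Bdnf does, 8 were lower and 0 higher after ethanol over both genotypes, where 6.69% of 12323 genes passed. Their median difference was -0.23, against -0.04 over all genes. Egr1, a zinc-finger factor, was 0.73 lower (difference -0.73, limma adjusted p = 0.00156), Dusp6, a phosphatase of ERK, -0.78 (0.00164), Fos -0.78 (0.00826), and Egr2 -1.20 (0.00851). Inhba, an activin subunit, was -0.44 (limma adjusted p = 0.013) and Rgs4, a regulator of G-protein signalling, -0.23 (0.0135). In Fyn-null mice 1 of 28 passed, Egr1 (-0.88, limma adjusted p = 0.0143), where 0.511% of all genes passed, and in control mice 1, Dusp6 (-0.75, 0.0427), where 1.45% did. The medians there were -0.26 and -0.22. With both saline pools in doubt left out, 7 of 28 passed over both genotypes, and Egr1 in Fyn-null mice did (limma adjusted p = 0.0485), but Dusp6 in control mice did not (0.0883). The Egr1 call was lost without Fyn-null ethanol replicate 1 or 2, and the Dusp6 call was kept only without control ethanol replicate 4, Fyn-null saline replicate 3 or 4 or Fyn-null ethanol replicate 2.

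Of 19 measured regulators of Bdnf transcription, 3 were lower over both genotypes and 0 higher (6.69% of all genes passed). Npas4, an activity-induced factor that acts on Bdnf promoters, read 6.31, 6.44 and 6.71 in Fyn-null ethanol replicates 1 to 3 and 7.74, 8.48 and 7.83 in the pools labelled Fyn-null saline replicates 2 to 4. It read 5.69, 6.39 and 6.61 in control ethanol pools and 7.57, 7.91 and 7.90 in control saline pools. All 6 ethanol pools lay below all 6 saline pools. Its difference was -1.52 in Fyn-null mice (limma adjusted p = 0.0154), -1.57 in control mice (0.0113) and -1.54 over both (0.000192). Nr3c1, the glucocorticoid receptor, was -0.36 (limma adjusted p = 0.0161) and Crtc2, a CREB coactivator, -0.23 (0.0284). Crtc2 signal was low, with means of 5.12 in ethanol and 5.35 in saline pools, and the filter lay at a mean of 5.15. Npas4 passed in each genotype without both saline pools in doubt (limma adjusted p = 0.0485 in Fyn-null and 0.0402 in control mice) and Crtc2 did not (0.0621). The call of Npas4 in Fyn-null mice was lost when Fyn-null saline replicate 3 or 1 of the Fyn-null ethanol replicates 1 and 2 was left out, and that of Crtc2 without Fyn-null saline replicate 3, Fyn-null ethanol replicate 2 or 3, control ethanol replicate 1 or 4, or control saline replicate 3.

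Of 12 measured genes of proneurotrophin sorting and cleavage, 1 passed, Plat, where 0.511% of all genes passed in Fyn-null mice, 1.45% in control mice and 6.69% over both genotypes. Plat encodes tissue plasminogen activator, the protease that makes plasmin, which can cleave the BDNF precursor outside the cell. It read 8.37, 8.27 and 8.48 in Fyn-null ethanol replicates 1 to 3 and 7.63, 7.43 and 7.25 in the pools labelled Fyn-null saline replicates 2 to 4, and 8.55, 8.07 and 8.10 in control ethanol pools and 7.52, 7.41 and 7.71 in control saline pools. No ethanol pool overlapped with a saline pool. The difference was 0.94 in Fyn-null mice (1.91-fold, limma adjusted p = 0.0134), 0.69 in control mice (1.62-fold, 0.0355) and 0.82 over both (0.000744). Without both saline pools in doubt the calls within each genotype were lost (0.84 and 0.62, limma adjusted p = 0.0632 and 0.0832), and that over both was kept (0.73, 0.00434). The call in Fyn-null mice was lost without any 1 of the Fyn-null ethanol pools or Fyn-null saline replicate 3 or 4. That in control mice was lost without any 1 of the control saline pools, control ethanol replicate 1 or 2, or Fyn-null ethanol replicate 1 or 3. The call over both genotypes was kept without each of the 12 pools. The proteases that act inside the cell, such as Furin and Pcsk1, did not pass in any comparison.

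Of 44 Trk adaptors and kinases, 2 were higher and 2 lower after ethanol over both genotypes, where 6.69% of all genes passed. Pik3r1, a regulatory subunit of PI3-kinase, was 0.42 higher (limma adjusted p = 0.0097) and Crkl, an adaptor of Trk signalling, 0.32 higher (0.0342), whereas Rps6ka3 (RSK, -0.36, 0.0198) and Akt2 (-0.32, 0.024) were lower. All 4 passed without both saline pools in doubt. The Crkl call was kept only without Fyn-null saline replicate 4 or Fyn-null ethanol replicate 1 or 3 (limma adjusted p of up to 0.0744 without the others) and was lost with no filter (0.0534), and the Akt2 call was lost without Fyn-null ethanol replicate 2 or control saline replicate 3. Within the genotypes, 0 of the 44 passed in Fyn-null mice (0.511% of all genes). In control mice 1 did (1.45% of all), Crkl (0.48, limma adjusted p = 0.0374), but not without both saline pools in doubt (0.0645). Of 23 partners of the p75 receptor 2 were higher and 1 lower over both genotypes, again where 6.69% of all genes passed. Nfkbia, the inhibitor of NF-kappaB, was 0.57 higher in Fyn-null mice (limma adjusted p = 0.0167), 0.67 higher in control mice (0.0069) and 0.62 higher over both (0.000142). The call in Fyn-null mice was lost without both saline pools in doubt (limma adjusted p = 0.0556) and without any 1 of the Fyn-null ethanol pools or Fyn-null saline replicate 3 or 4. The calls in control mice and over both genotypes were kept without both pools (0.0173 and 0.00078) and without each of the 12. Psen2, a gamma-secretase subunit, was 0.32 higher and Prdm4, a factor that binds p75, -0.24, and both passed without both pools in doubt (limma adjusted p = 0.0228 and 0.0364). The Psen2 call was lost without Fyn-null ethanol replicate 2, control ethanol replicate 1 or control saline replicate 1, and that of Prdm4 without Fyn-null saline replicate 3, Fyn-null ethanol replicate 2 or 3, control ethanol replicate 1 or control saline replicate 3. Of 16 other secretory granule genes, the company of Vgf, 0 passed in any of the 7 comparisons, and 14 of 16 lay below 0 over both genotypes with a median of -0.10. The median over all genes was -0.04, and the share of all genes below 0 was not counted. Among the 16, Penk, the precursor of the enkephalins, had the smallest p over both genotypes (-0.27, limma adjusted p = 0.063). No gene of these lists passed in a genotype comparison or in the interaction.

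**Figure D5:**
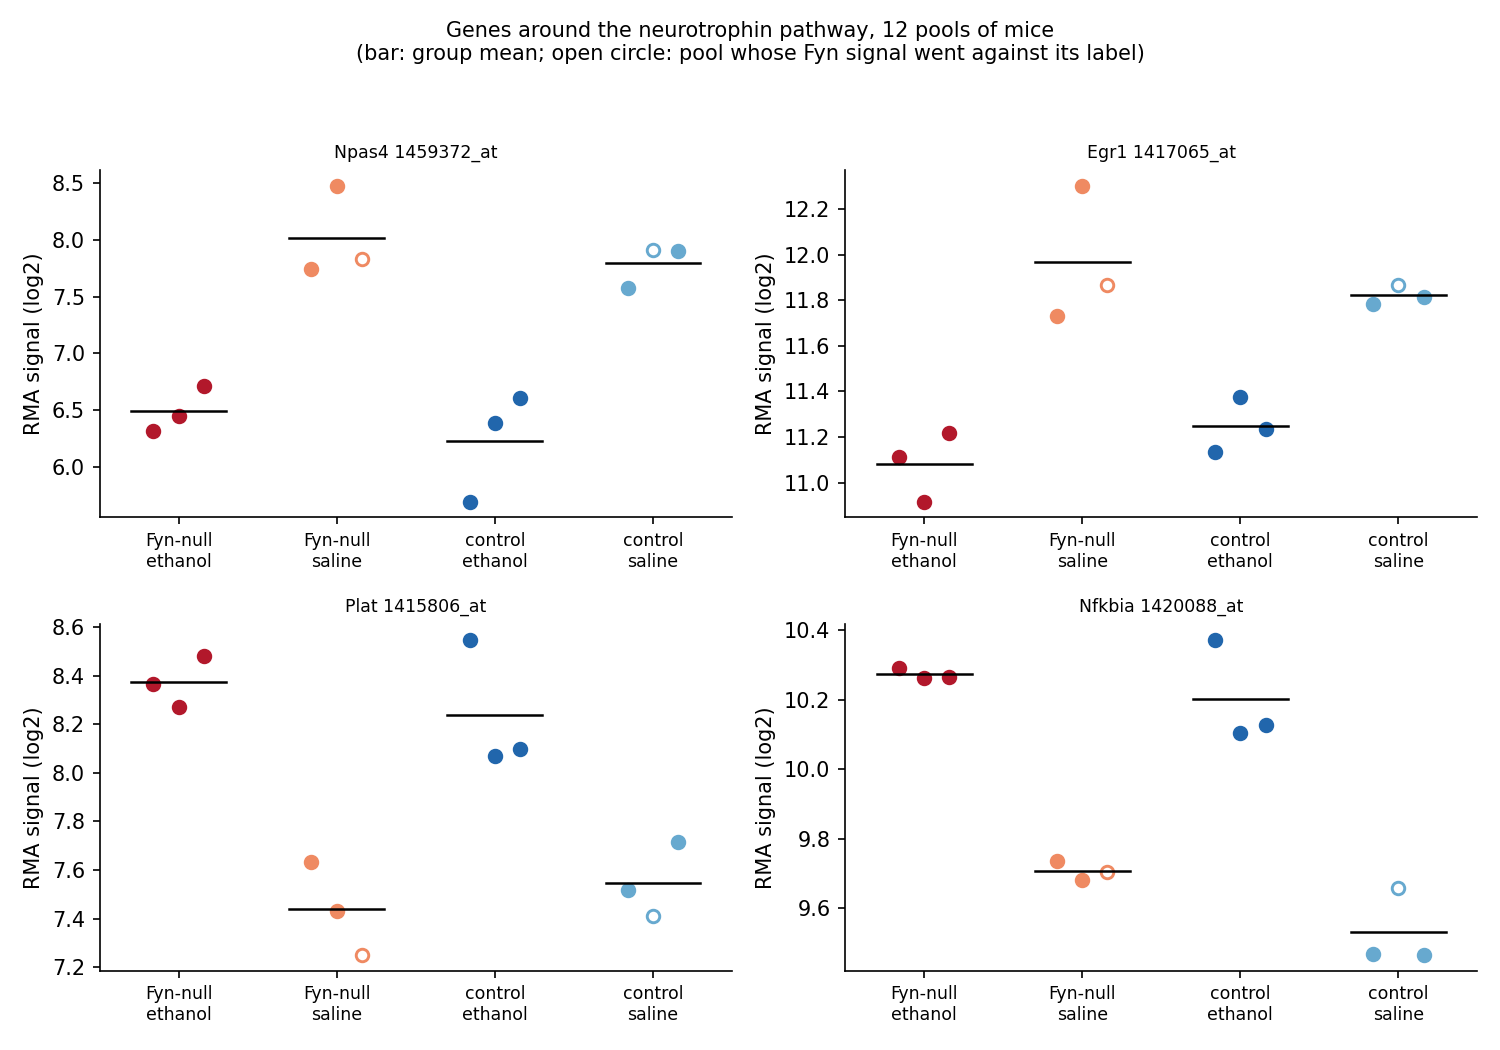
Log2 RMA signal of Npas4, Egr1, Plat and Nfkbia (vertical axes) in each pool of the 4 groups (horizontal axes), with the group mean as a bar and the 2 saline pools whose Fyn signal went against the label as open circles. Npas4 and Egr1 are lower, and Plat and Nfkbia higher, in all 6 ethanol pools than in any of the 6 saline pools.

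Other measures moved with ethanol beside these genes. Over both genotypes 6.69% of all 12323 genes passed, the share to set beside each marker list here. Of 6 endothelial markers, 4 were lower and 1 higher. The lower ones were Slco1a4 (-0.57, limma adjusted p = 0.000259), Cldn5 (-0.64, 0.000312), Flt1 (-0.41, 0.00164) and Tek (-0.92, 0.00275), and the higher one was Slc2a1 (0.71, 0.000305). Their mean log2 level was 7.26 to 7.46 in Fyn-null ethanol and 7.52 to 7.67 in Fyn-null saline pools, and 7.10 to 7.29 in control ethanol and 7.51 to 7.61 in control saline pools. Of 6 microglial markers Aif1 was lower (-0.44, limma adjusted p = 0.00435). Of 3 measured striatal markers Ppp1r1b was higher (0.21, limma adjusted p = 0.0316). As a list, 2 striatal markers lay above 0 and 1 below, with a median of 0.02 against -0.04 over all genes. The mean level of the 6 cortical excitatory markers was 8.43 to 8.78 in Fyn-null ethanol and 8.65 to 8.81 in Fyn-null saline pools. It averaged 8.87 ± 0.13 in control ethanol and 8.91 ± 0.17 in control saline pools (SD, n = 3 each). With the 3′ minus 5′ difference as a covariate, the differences of Npas4 and Plat over both genotypes were -1.36 and 0.86 (limma adjusted p = 0.105 and 0.107), and 0 genes of the pathway lists passed in that fit. Among the others, Rps6ka3, Akt2 and Prdm4 were smaller in size than without the covariate, at -0.17, -0.18 and -0.11. Pik3r1, Crkl and Psen2 were larger, at 0.50, 0.40 and 0.43. The part of endothelial markers in the Bdnf, Sort1 and pathway differences was not tested.

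Over the 12 arrays, the genes whose signal was most like that of Bdnf 1422168_a_at by Pearson correlation, among 12317, were Adarb1 (0.94), Spats2l (0.93), Acp6 (0.92), Pdss2 (0.92) and Pitpnm3 (0.90). With group means removed these correlations were 0.62 to 0.83. For Vgf they were B9d1 (0.94), Clec16a (0.94), Tbc1d22b (0.94), Dlgap4 (0.94) and Atp6v0a1 (0.93), and 0.90 to 0.97 with group means removed. The arrays share treatment, genotype and normalization, and the genes were picked as the highest of many, so these values are a description only.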

How the data were processed

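Total RNA of medial prefrontal cortex pools was hybridised to Affymetrix Mouse Genome arrays. The deposited values are log2 signals per probe set, which the authors made with the affy package and RMA. The study's methods name a step for hybridization batch effects, but do not say whether it was applied to these RMA values, and the versions are not stated in the sources used. RMA shrinks differences of dim probe sets. S-scores, which need probe-level intensities, were not computed.

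Genes were named through the platform annotation (34958 probe sets with 1 symbol, 932 with several, 9211 with none). Control probe sets (64) were dropped, as was the dimmest 45% of the rest by mean signal. A linear model per probe set (lmFit, then eBayes; limma version 3.58.1, R version 4.3.3) was run on the other 24770 with 4 group means, or on additive genotype and treatment terms for the differences over both. A probe set passed at a Benjamini-Hochberg adjusted p under 0.05. The script was tested on simulated data. In gene lists each gene was read by its brightest probe set. The naming rule took all member probe sets, per list and comparison up to 6 passing genes by smallest p or, with none, up to 3, and the 5 genes most like Bdnf and Vgf. The members and lists were chosen with earlier results of these data known.

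The filter was also dropped or raised to 60%. Other fits used quantile normalization on top, a replicate block, robust eBayes with a trend, array weights, the compared groups alone, or the 3′ minus 5′ difference as a covariate. Pools were left out one at a time, as were both saline pools in doubt. Promoter windows are from RefSeq (GRCm38.p6). The number of arrays limits the precision: the median standard error of a difference was 0.11 for 3 against 3 pools and 0.08 for 6 against 6.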

Additional observations from a re-analysis of the deposited data

How the results depend on the processing

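In Fyn-null mice the number of members that passed after ethanol (1) became 0 with no filter, with the replicate block, with only the groups compared, with the 3′ to 5′ covariate and without both saline pools in doubt, 2 with a filter of 60% and with trend and robust eBayes, and 4 with array weights, whose iteration stopped before converging in 1 fit. It was 0 to 1 when each pool was left out. Over both genotypes the number (3) became 1 with no filter and with the replicate block, 0 with the covariate, and 1 to 2 when each pool was left out. Under ethanol the genotype comparison gave 3 with array weights. The counts of 0 in the 4 other comparisons, control mice, the interaction, genotype under saline and genotype over both treatments, stayed at 0 in the alternatives run.

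Over all probe sets, the replicate block gave 26, 36 and 710 in Fyn-null mice, control mice and over both genotypes, and the covariate 15, 16 and 27, against 99, 355 and 1686. Array weights gave 2781, 506 and 2098, only the groups compared 82 and 18 in the first pair, further quantile normalization 155, 413 and 1967, and leaving out both pools in doubt 54, 147 and 1309. Leaving out each pool gave 33 to 145, 76 to 410 and 770 to 1625. For genotype under ethanol, with 0 in the main analysis, array weights gave 3975 and only the groups compared 193, and for genotype over both treatments leaving out each pool gave 0 to 129. Same-numbered arrays gave no clear sign of pairing. They deviated together (correlation over 0.1) in 3 of 13 pairs, with correlations of -0.43 to 0.32, and 2 of 12 arrays correlated best with one of their own number. Whether the numbers stand for a shared batch was not tested. With the replicate block, Bdnf 1422168_a_at in Fyn-null mice was -0.63 (limma adjusted p = 0.0817).

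Among the Bdnf, Vgf, Ntrk3 and Sort1 values followed, 10 turned in sign. With the covariate, Bdnf 1422168_a_at in control mice became 0.049, Vgf in control mice 0.016 and Ntrk3 1455917_at over both genotypes 0.11. Without both pools in doubt, the Vgf interaction became 0.10 and the Bdnf 1422169_a_at genotype difference under saline -0.016, and with the replicate block this difference was -0.0085. When each pool was left out, the genotype differences under saline ran over -0.0048 to 0.17 for Bdnf 1422168_a_at (turning without Fyn-null saline replicate 3), -0.014 to 0.21 for 1422169_a_at (without Fyn-null saline replicate 4) and -0.18 to 0.052 for Vgf (without Fyn-null saline replicate 2 or control saline replicate 3). The cause was not tested. Of the 2115 other member values, 145 turned in sign, 125 of them with a difference under 0.1 in size. The larger ones were of Ntrk3, 1455917_at with the covariate (0.14 in Fyn-null and 0.08 in control mice) and 1447723_at, whose interaction of -0.60 became 0.65 without both pools in doubt. Of the 593 Bdnf, Vgf, Ntrk3 and Sort1 values under the alternatives, 530 kept direction and side of the threshold, and of 527 values of pathway genes 407 did, 120 lost the call and 0 turned. With the replicate block the pathway lists gave, over both genotypes, 5 activity-regulated genes, 3 Trk adaptors and kinases, and 1 gene in each of the p75, Bdnf-regulator and sorting lists. Within each genotype the block left Npas4 and ended the calls of Plat (limma adjusted p = 0.0919 in Fyn-null and 0.0722 in control mice), Nfkbia (0.165 and 0.0586), Egr1 (0.0741), Dusp6 (0.164) and Crkl (0.176 in control mice, against 0.0374). With only the groups compared, Npas4 in control mice had 0.0613 and Egr1 in Fyn-null mice 0.0658.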
